A study of Mus musculus with 42 samples.

Results

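Genomic binding of HOX factors was examined at the genes of the GDNF receptor family, Ret and Gfra1 to Gfra4, in mouse embryonic stem cells differentiating into spinal motor neurons. A binding event is a position at which the authors' caller found more ChIP reads than in a control library. Every event that lay in a GENCODE gene span or within 50 kb of either end of it was taken from each of 21 event lists. The 5 genes, of 21938 protein-coding genes, held 600 of the 1087512 events in all lists. Events within 100 bp of each other were merged, which left 161 sites of 377386 sites in the whole series. Position alone chose the events, among those that passed the caller's threshold, and the sites described one by one were picked by their number of lists and their read counts, so their values are descriptions.

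RET is a receptor tyrosine kinase that binds its ligands only together with a membrane-anchored co-receptor. GFRA1 is the preferred co-receptor for GDNF, GFRA2 for neurturin, GFRA3 for artemin and GFRA4 for persephin. In the spinal cord, GDNF acting through RET and GFRA1 keeps motor neurons alive, helps steer motor axons into the limb and induces the ETS factor ETV4 (also called PEA3) in some motor pools. HOX factors set the position along the body axis at which motor neurons of different kinds form: HOXC6 and HOXC8 act at brachial, HOXC9 at thoracic and HOXC10 at lumbar levels.

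The 42 libraries form 23 groups by their labels, and each of 21 groups has a list that pools its libraries. In all of them a tagged Hox gene was switched on by doxycycline (Dox) in an engineered mouse stem cell line grown as embryoid bodies (EBs). At day 3 (retinoic acid and the smoothened agonist SAG from day 0, Dox for 24 h from day 2) the lists cover 7 full-length factors, namely HOXA9, HOXD9 and, from the Hoxc cluster, HOXC6, HOXC8, HOXC9, HOXC10 and HOXC13. The same stage covers 4 chimeras, 2 of which (HOXC13:C10.1, HOXC13:C10.2) join the N-terminal part of HOXC13 to the homeodomain and C-terminus of HOXC10. The other pair (HOXC10:C13.1, HOXC10:C13.2) has the opposite make-up. In HOXC13:C10.2 and HOXC10:C13.2 the swap starts further upstream, to take account of a conserved region before the homeodomain. At day 4 (Dox for 48 h) the lists cover HOXC6, HOXC9 and HOXC10, and in EBs that received neither patterning signal (Dox for 12 h) they cover HOXC6 and HOXC9. The cofactors MEIS and PBX, homeodomain proteins that bind DNA with HOX factors, were also assayed. MEIS was assayed at day 3 with V5-tagged HOXC6, HOXC9 or HOXC10, and PBX at day 4 with Flag-tagged HOXC9 or HOXC10. The tag was Flag for the HOX lists, except that 1 of the libraries pooled for HOXA9, for HOXD9 and for HOXC13 carried HA and 1 of the 3 HOXC10 libraries at day 3 carried V5. Each factor came from an induced transgene, and the cultures hold interneurons as well as motor neurons. Events carry no expression values, so the cell type was not checked here. The 2 control libraries were not used in any comparison.

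Lists held 848 to 128388 events and differed in depth (5.04 to 32.9 M reads per library) and in the fraction of reads assigned to events (0.008 to 0.527 per library). At day 3 the pooled fraction was 0.075 for HOXC6, 0.284 for HOXC9, 0.097 for HOXC10 and 0.349 for HOXC13. The HOXC10 list pools libraries of 5.04 to 21.8 M reads with fractions of 0.017 to 0.161. Each HOX list pools 2 to 4 libraries and gives no values per library, so no value below has an error between differentiations and no test between conditions was made. Sig is the number of ChIP reads that the authors' caller estimated for an event. It is given per M aligned reads of the pooled list, and the 95% Poisson intervals drawn for it cover counting error only. Rank is the place of an event in its own list by Sig, as a percent of the list, with low values for strong events, and lists are compared by rank because their depth and signal fraction differ. A percent rank also depends on list length, as the same place is a higher percent of a shorter list. At day 3 the strongest Gfra1 event was at place 3033 for HOXC6 (16.9%) and at place 3187 for HOXC8 (7.14%). Where a list has no event at a site, its binding there was below the calling threshold, and the lowest Sig in the 16 HOX lists was 24 to 71 reads.

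Sites are named by gene and by distance in kb from the gene's annotated start, with a plus sign for positions in the direction of transcription. The sequences of 12 sites that the results turn on are shown first (build GRCm38, plus strand, 50 bp on each side of the site's centre). Capitals mark the cores TAAT (on the other strand ATTA), TTTAT (on the other strand ATAAA) and TTTAC (on the other strand GTAAA) of HOX factors, and the core TGACAG (on the other strand CTGTCA) of MEIS. Neighbouring matches can run together, and at Gfra1 +210.9 kb a HOX and a MEIS core overlap.
At Ret, 2 neighbours in intron 1 held the strongest events, and a site upstream of the start was shared by 9 HOX lists.
Ret +10.8 kb, chr6:118186915-118187015: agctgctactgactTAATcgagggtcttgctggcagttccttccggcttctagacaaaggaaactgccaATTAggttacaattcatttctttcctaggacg
Ret +10.4 kb, chr6:118187309-118187409: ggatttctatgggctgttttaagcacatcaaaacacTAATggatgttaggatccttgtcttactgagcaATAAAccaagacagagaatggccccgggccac
Ret -7.4 kb, chr6:118205099-118205199: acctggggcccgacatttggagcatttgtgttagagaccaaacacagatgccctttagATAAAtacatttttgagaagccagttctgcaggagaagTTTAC
At Gfra1, the sites shown are those in the most lists (+115.9 and +210.9 kb), the strongest HOXC10 site (+112.8 kb) and a site of HOXC13 alone (+167.6 kb). The +103.0 kb site was shared by 11 HOX lists, and +145.8 kb held the strongest Gfra1 event of MEIS in cells with induced HOXC10.
Gfra1 +210.9 kb, chr19:58244932-58245032: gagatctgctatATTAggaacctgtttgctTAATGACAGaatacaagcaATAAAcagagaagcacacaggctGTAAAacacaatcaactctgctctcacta
Gfra1 +167.6 kb, chr19:58288244-58288344: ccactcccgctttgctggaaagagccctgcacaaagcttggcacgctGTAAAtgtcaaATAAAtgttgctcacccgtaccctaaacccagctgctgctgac
Gfra1 +145.8 kb, chr19:58310030-58310130: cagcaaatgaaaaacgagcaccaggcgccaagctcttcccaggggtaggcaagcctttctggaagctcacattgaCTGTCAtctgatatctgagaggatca
Gfra1 +115.9 kb, chr19:58340008-58340108: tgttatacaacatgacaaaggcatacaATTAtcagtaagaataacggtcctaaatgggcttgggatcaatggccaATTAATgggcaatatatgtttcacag
Gfra1 +112.8 kb, chr19:58343051-58343151: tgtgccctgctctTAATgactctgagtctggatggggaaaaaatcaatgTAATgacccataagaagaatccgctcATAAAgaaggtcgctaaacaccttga
Gfra1 +103.0 kb, chr19:58352825-58352925: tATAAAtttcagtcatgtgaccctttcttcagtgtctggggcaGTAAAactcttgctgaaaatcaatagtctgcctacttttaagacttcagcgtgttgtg
At Gfra2 the sites led by HOXC9 and by HOXC13 are shown, and at Gfra4 the strongest site, which came from EBs alone.
Gfra2 +49.9 kb, chr14:70940009-70940109: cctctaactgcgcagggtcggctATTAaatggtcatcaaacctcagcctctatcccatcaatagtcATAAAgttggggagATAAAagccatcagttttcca
Gfra2 +103.8 kb, chr14:70993856-70993956: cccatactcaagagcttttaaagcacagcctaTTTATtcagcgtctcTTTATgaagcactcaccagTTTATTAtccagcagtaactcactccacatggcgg
Gfra4 -4.6 kb, chr2:131047591-131047691: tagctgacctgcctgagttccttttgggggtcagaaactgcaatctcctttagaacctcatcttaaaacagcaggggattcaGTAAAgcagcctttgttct

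Sites were spread unevenly over the family. Gfra1 held 94 of the 161 sites (58.4%), Gfra3 27, Gfra2 20, Ret 15 and Gfra4 5. Gfra1 also has the longest window (320 kb), but per Mb of window it still had the most, with 293 sites against 207 at Gfra3, 105 at Gfra2, 103 at Ret and 48.3 at Gfra4. Of all sites, 85 lay in an intron of the member itself, 8 in an exon of some gene and 11 within 1 kb of an annotated protein-coding start. For 130 of the 161 sites the nearest protein-coding start was that of the member. The exceptions lay at Gfra1, where 6 upstream sites were nearest to Ccdc172, at Ret, where 10 of 15 sites were nearest to Csgalnact2, at Gfra3, where 9 were nearest to Cdc23, 3 to Cdc25c and 2 to Fam53c, and at Gfra4, where 1 was nearest to Siglec1. Sites of a single list numbered 71, or 44.1% (45.8% of all sites of the series), and 26 sites, or 16.1% (7.62%), were shared by 8 or more HOX lists, of which 17 were at Gfra1, 4 at Ret, 3 at Gfra3 and 2 at Gfra2.

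**Figure D1:**
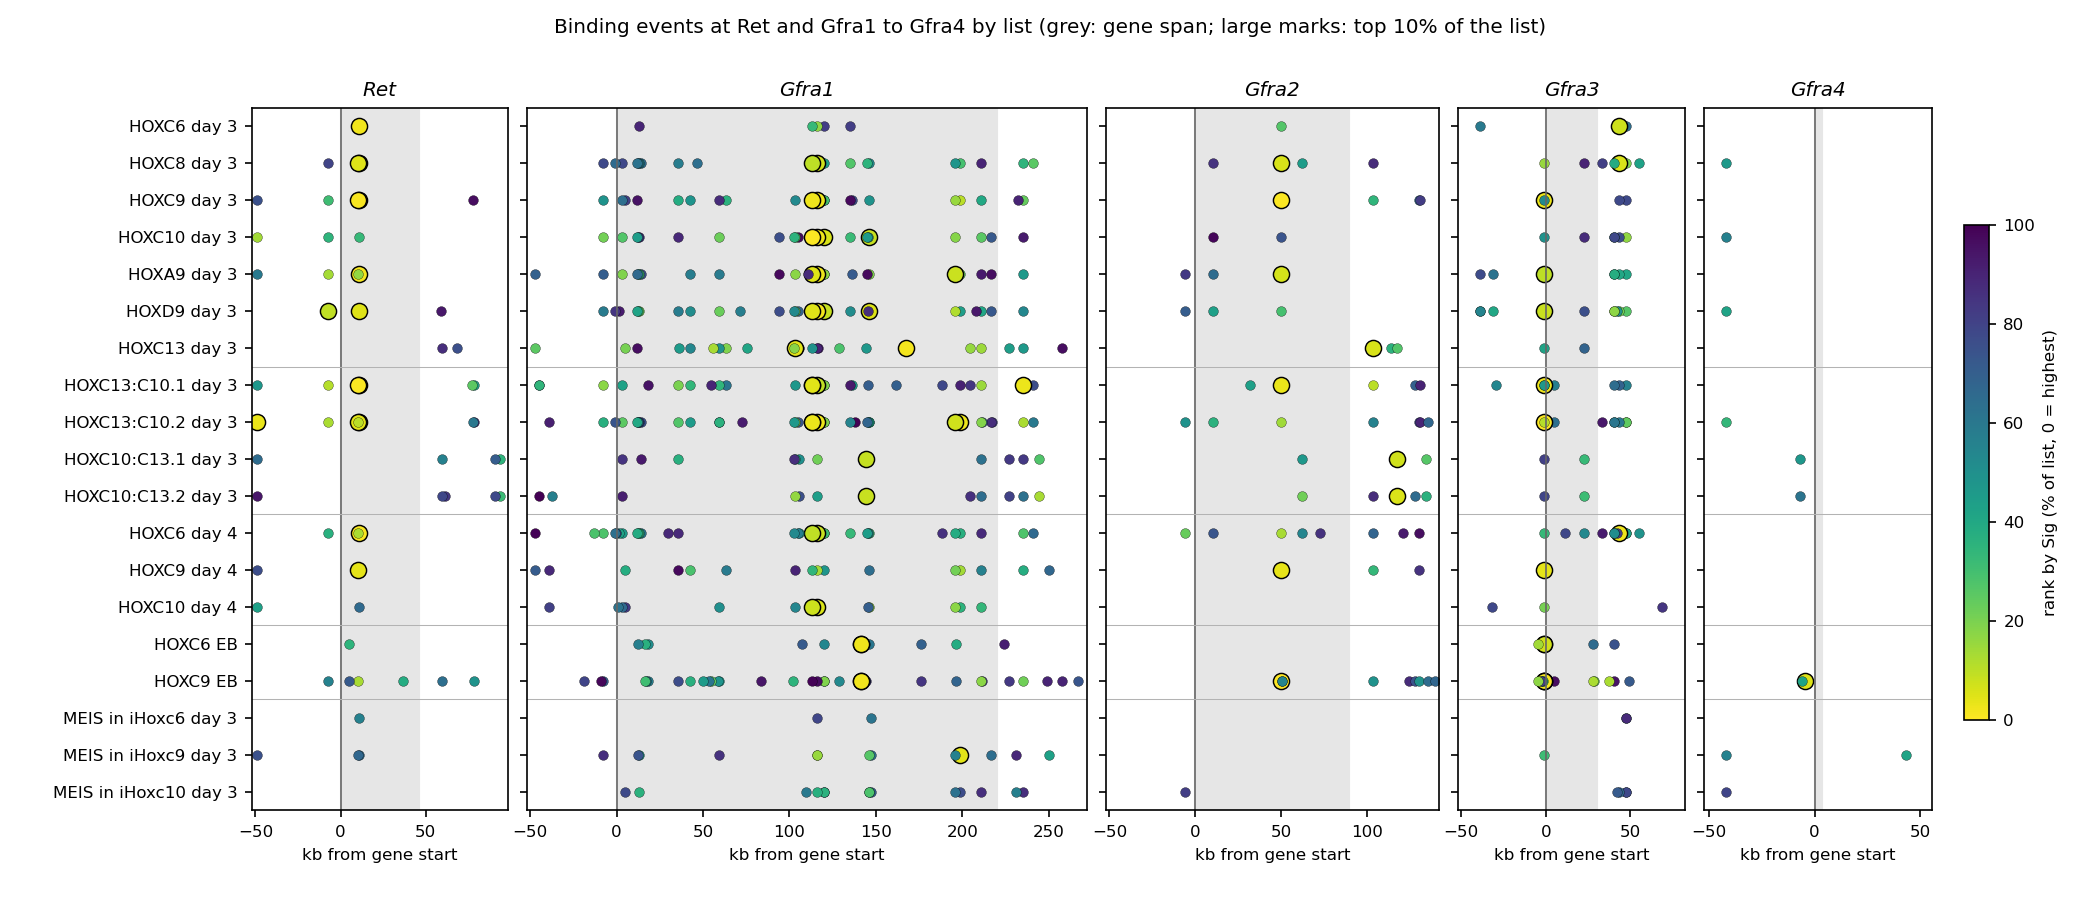
Each point is an event, placed at the distance of its site in kb from the gene start (x) and on the row of its list (y), with the colour giving its rank by Sig in percent of its list, large marks the top 10% and grey the gene span. Gfra1 carries events from all 19 lists drawn, Gfra4 holds 11 events in all, the top events at Ret lie mostly at 10.4, 10.8 and -49.0 kb, and those at Gfra2 line up at 49.9 kb for most lists.

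At day 3, HOXC10, HOXC8 and HOXD9 had an event at all 5 genes, where 46.9%, 65.8% and 77.6% of protein-coding genes had one in their own windows. The other 4 full-length factors had events at 4 of the 5, namely HOXC6 (45.5% of protein-coding genes), HOXC9 (70.4%), HOXA9 (76.5%) and HOXC13 (84.3%). The gene without an event was Gfra4 in each of the lists with 4. For the chimeras the counts were 4 genes for HOXC13:C10.1 (78% of protein-coding genes), 5 for HOXC13:C10.2 (76.8%), 5 for HOXC10:C13.1 (63.3%) and 5 for HOXC10:C13.2 (72.4%). At day 4 HOXC6 had events at 4 genes (75.5%), HOXC9 at 4 (61.8%) and HOXC10 at 3 (63.7%). In EBs HOXC6 had events at 3 genes (78.1%) and HOXC9 at 5 (89.3%). MEIS had events at 3 genes with HOXC6 (24.1%), 4 with HOXC9 (46.6%) and 4 with HOXC10 (36.8%). PBX had no event at any of the 5 genes, and 21.4% of protein-coding genes had one in either PBX list. The PBX lists hold 1165 and 848 events. With windows of such length an event near a gene is common, so the number, rank and sharing of events say more than their presence.

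**Figure D2:**
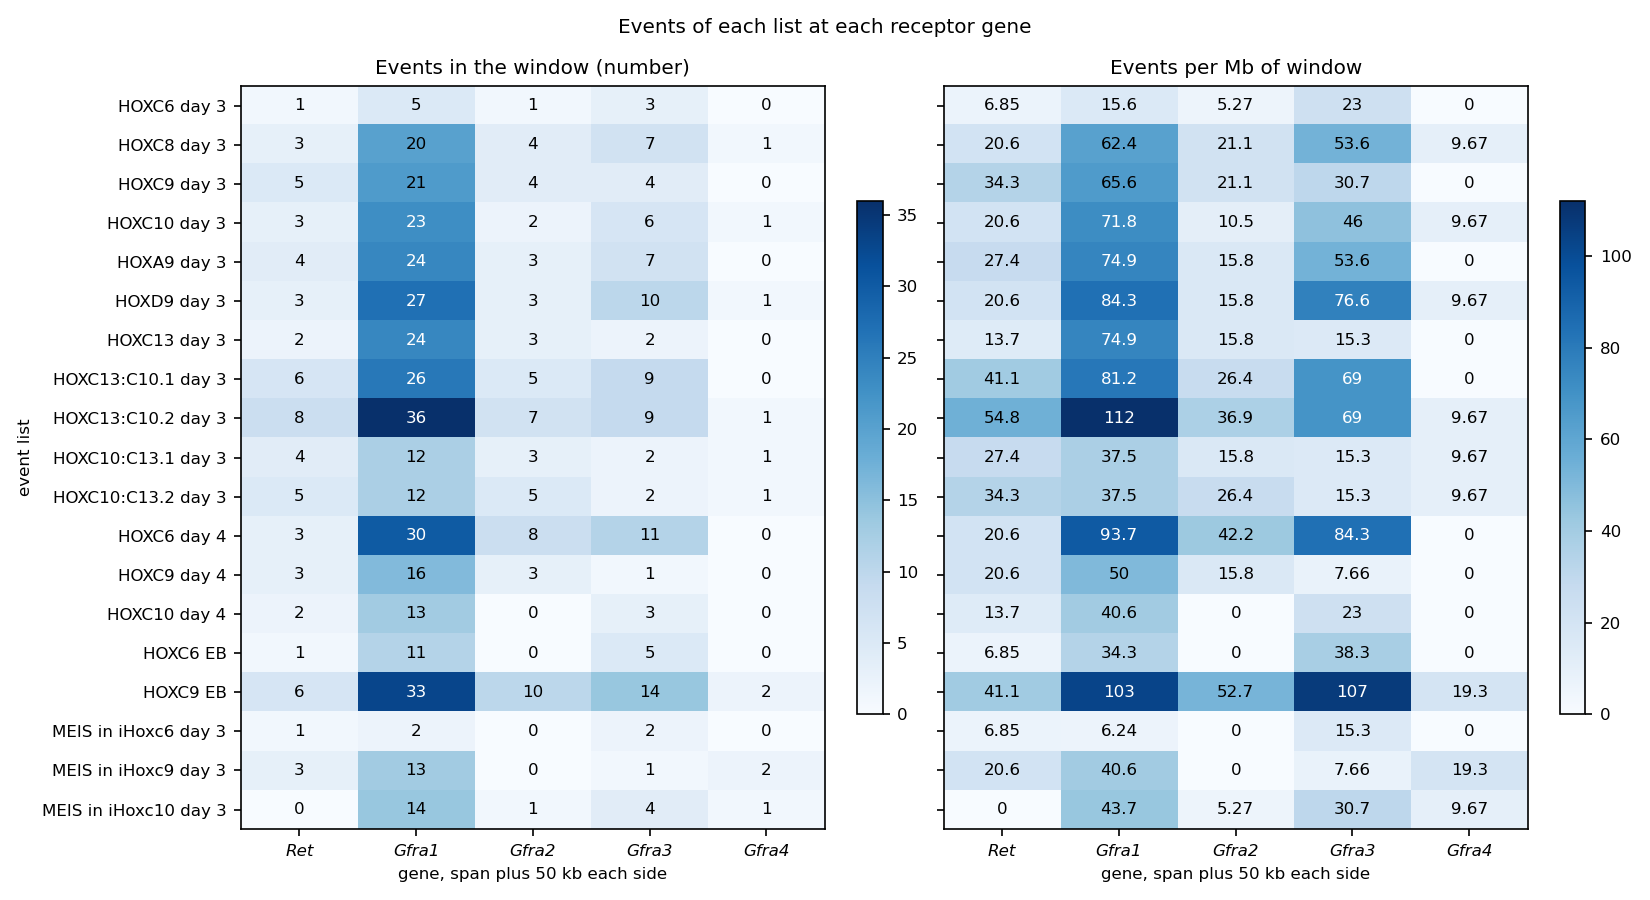
The left panel gives the number of events of each list (rows) in each gene's window (columns), and the right panel gives events per Mb of window. Gfra1 has the largest number in all 16 HOX lists, with 5 HOXC6 events at day 3 and 30 at day 4, while per Mb Gfra3 is higher for HOXC6 at day 3 (23 against 15.6) and for both EB lists.

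At day 3 the 5 windows together held 44 events of HOXD9, 38 of HOXA9, 35 of HOXC8, 35 of HOXC10, 34 of HOXC9, 31 of HOXC13 and 10 of HOXC6. Their density relative to the whole genome was 3.99 times for HOXC10, 2.40 for HOXC8, 2.39 for HOXD9, 1.85 for HOXA9, 1.71 for HOXC6, 1.41 for HOXC9 and 0.82 for HOXC13. The HOXC10 density was uneven, with 71.8 events per Mb at Gfra1, 46 at Gfra3 and 20.6 at Ret. At Gfra2 (10.5) and Gfra4 (9.67) it was near the 9.86 of the whole genome. Strong events were counted as those among the top 10000 of a list. They numbered 17 of the 35 HOXC10 events, or 48.6% (37.2% of the whole HOXC10 list), 5 of 10 for HOXC6 (55.9%), 8 of 35 for HOXC8 (22.4%), 7 of 34 for HOXC9 (13.5%), 7 of 38 for HOXA9 (15.9%), 10 of 44 for HOXD9 (17.7%) and 3 of 31 for HOXC13 (8.63%). The HOXC6 share was below that of its list and the other 6 were above, HOXC8 with 22.9% against 22.4%.

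Ret, the signalling receptor of the family (chr6:118151745-118197718, minus strand), had 63 events at 15 sites, 4 of them inside the gene and all of these in introns. The strongest binding lay at a pair of sites in intron 1, about 10 kb downstream of the start. At the Ret +10.8 kb site 11 of the 16 HOX lists had an event, and no event was called for HOXC13, either HOXC10:C13 chimera or either EB list. Sig per M reads at day 3 was 20 for HOXC9, 12.8 for HOXC6, 12.2 for HOXC8 and HOXA9, 5.81 for HOXD9 and 2.52 for HOXC10. These events ranked at 1.73% (HOXA9), 1.8% (HOXC9), 2.15% (HOXC6), 4% (HOXC8), 4.76% (HOXD9) and 33.1% (HOXC10) of their lists. HOXC10 thus ranked lowest of the 6 factors with an event. The chimeras with a HOXC10 homeodomain had 19.1 reads per M (HOXC13:C10.1, rank 3.3%) and 11.5 (HOXC13:C10.2, rank 5.92%), ranking above full-length HOXC10. At day 4 HOXC6 had 38.3 at a rank of 0.909%, while HOXC9 had 3.77 (23%) and HOXC10 1.02 (66%). MEIS events lay here in iHoxc6 (3.74) and iHoxc9 cells (3.64), at ranks of 56.3% and 65%.

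The neighbouring Ret +10.4 kb site separated HOXC9 from HOXC10. HOXC9 had its strongest event at Ret here, with 26.1 reads per M at a rank of 0.979%, and HOXC8 had 10.9 (4.84%) and HOXA9 3.72 (16.1%). No event was called for HOXC6, HOXC10, HOXD9 or HOXC13 at day 3. HOXC13:C10.1 had the largest value at this site, 50.7 at a rank of 0.454%, and HOXC13:C10.2 had 13.9 (4.42%). At day 4 HOXC9 had 12.4 (4.03%) and HOXC6 7.52 (12.6%), HOXC10 had no event, and HOXC9 in EBs had 5.91 (13%). MEIS had an event in iHoxc9 cells alone (3.54 reads per M, 66.8%).

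The other Ret sites were weaker for most lists. The Ret -7.4 kb site, 7.4 kb upstream of the start, had events in 9 HOX lists, led by HOXC13:C10.1 (8.26 reads per M, 11%), HOXC13:C10.2 (6.81, 12.6%), HOXA9 (4.14, 13.6%) and HOXD9 (4.11, 9.71%). The Ret -49.0 kb site, in an exon of 1700069P05Rik, also had events in 9 HOX lists and held the strongest HOXC10 event of the window (4.29, 13.8%) and an HOXC13:C10.2 event at 3.34% of its list (16.4). HOXC13 itself had 2 events in the Ret window, both within Csgalnact2 and both weak. They lay at Ret +68.2 kb (0.998, 75.5%) and at Ret +59.3 kb (0.878, 86.8%), and the second was shared with both HOXC10:C13 chimeras and HOXC9 in EBs. The strongest HOXC10:C13 events (1.57 and 1.70) lay beyond Csgalnact2 at Ret +93.6 kb, where no other list had one. HOXC6 in EBs had its only Ret event at Ret +5.0 kb in intron 1 (3.06, 35%), a site shared with HOXC9 in EBs alone.

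**Figure D3:**
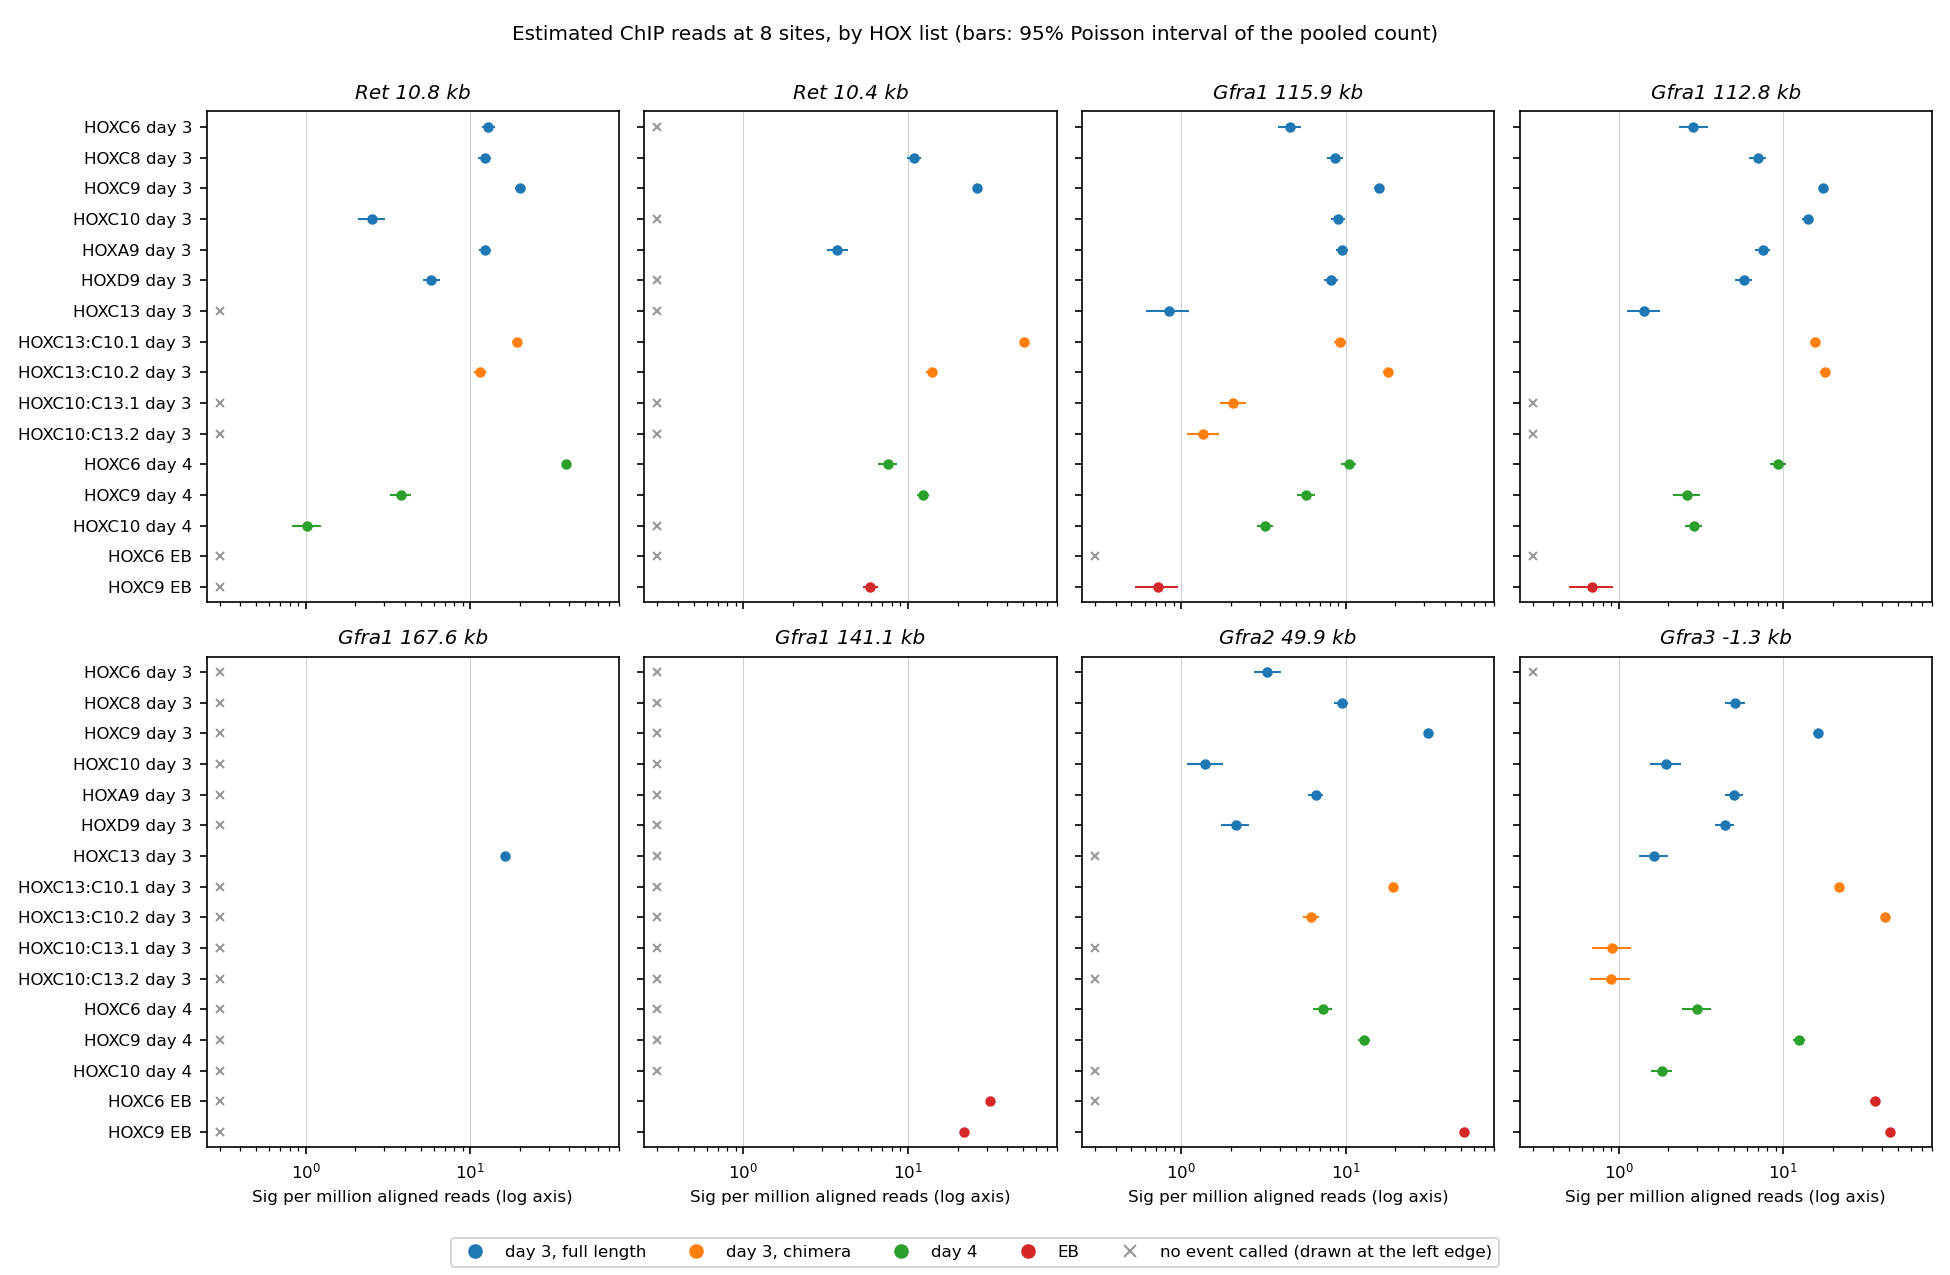
Points give Sig per M aligned reads on a log axis for each HOX list at 8 sites, with 95% Poisson intervals of the pooled count, and crosses mark lists with no event called. HOXC9 lies between 15.9 and 31.8 at 6 of the sites at day 3, HOXC10 ranges from no event at Ret +10.4 kb to 14.1 at Gfra1 +112.8 kb, and Gfra1 +141.1 kb has events in the EB lists alone.

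Gfra1, the co-receptor for GDNF (chr19:58235604-58455909, minus strand), had 362 events at 94 sites, 68 of them in its introns. No other protein-coding gene overlaps its window. HOXC10 at day 3 had 23 events there, and 0.401% of all protein-coding genes had as many in their windows, or 0.515% as many per Mb. The share of genes with as many events was 0.944% for HOXD9 (27 events), 1.08% for HOXC8 (20), 1.44% for HOXA9 (24), 2.33% for HOXC9 (21), 3.37% for HOXC13 (24) and 3.52% for HOXC6 (5). Per Mb, which allows for the long window, the shares were 2.41% for HOXD9, 1.36% for HOXC8, 2.77% for HOXA9, 4.08% for HOXC9, 9.68% for HOXC13 and 12.3% for HOXC6. Of the 23 HOXC10 events 12 were in the top 10000 of the list, against 5 of HOXD9, 3 of HOXC9 and of HOXA9, and 2 of HOXC6, of HOXC8 and of HOXC13. The HOXC10 list is shorter than all of these except that of HOXC6, so the top 10000 reaches further down it.

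The strongest shared binding at Gfra1 lay in intron 5. At Gfra1 +115.9 kb 15 of the 16 HOX lists and all 3 MEIS lists had an event, and HOXC6 in EBs was the HOX list without one. At day 3 Sig per M reads was 15.9 for HOXC9, 9.51 for HOXA9, 8.99 for HOXC10, 8.61 for HOXC8, 8.14 for HOXD9, 4.56 for HOXC6 and 0.842 for HOXC13. HOXC13 stood apart from the other 6, with a rank of 90.4% against ranks of 2.22% (HOXD9) to 16.9% (HOXC6). Sig per M reads was 2.07 and 1.36 for the HOXC10:C13 chimeras and 9.23 and 18 for the HOXC13:C10 chimeras. Their pooled signal fractions differ (0.145 and 0.192 against 0.430 and 0.355), so these values are not compared. At day 4 HOXC6 had 10.5, HOXC9 5.73 and HOXC10 3.25, and HOXC9 in EBs had 0.723, near the end of its list at 97.2%.

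At Gfra1 +112.8 kb HOXC10 had its strongest event of all 5 genes, with 14.1 reads per M at a rank of 0.685%. HOXC9 had 17.5 there (2.38%), HOXA9 7.51 (4.94%), HOXC8 6.98 (9.9%), HOXD9 5.77 (4.85%), HOXC6 2.84 (33.1%) and HOXC13 1.43 (49%). The HOXC13:C10 chimeras had 15.5 and 17.8, and no event was called for either HOXC10:C13 chimera. Gfra1 +119.7 kb, in the same intron, had 6.63 for HOXC10 (5.88%), 4.28 for HOXD9 (8.97%), 3.58 for HOXA9 (17%) and 3.03 for HOXC9 (30.1%), with no event for HOXC6, HOXC8 or HOXC13 at day 3. At Gfra1 +210.9 kb in intron 9, 14 HOX lists had an event and the highest rank of a full-length factor at day 3 was 14.8% (HOXC13, 3.92 reads per M). At Gfra1 +235.3 kb, past the end of the gene, 13 HOX lists had one, led by HOXC13:C10.1 (21.2, 2.77%).

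HOXC13 had 24 events at Gfra1, and 13 of their sites (54.2%, against 73.4% of all HOXC13 sites) had no other full-length factor at day 3. The strongest was Gfra1 +167.6 kb in intron 6, where HOXC13 had 16.3 reads per M at a rank of 1.8% and no other list had an event. At Gfra1 +103.0 kb, shared by 11 HOX lists, HOXC13 was again the strongest (9.27, 4.67%), ahead of HOXA9 (3.53), HOXC10 (3.09), HOXD9 (2.72) and HOXC9 (1.69). Both HOXC10:C13 chimeras had their strongest Gfra1 event at Gfra1 +144.0 kb (3.34 at 8.71% and 3.53 at 8.44%), with HOXC13 at 1.49 (46.6%), HOXC9 in EBs at 0.891 and no HOXC10 event.

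The Gfra1 sites with an event differed between stages. HOXC6 had 5 events at day 3, all with a day 4 event at the same site, and 30 at day 4. The day 4 list is 69297 events long against 17900 at day 3, and its signal fraction was 0.308 against 0.075. Of the 25 Gfra1 sites that HOXC6 had at day 4 and not at day 3, 14 (56%) had a HOXC8 event at day 3, against 39.8% of such sites in the whole series. In EBs the strongest Gfra1 binding was at Gfra1 +141.1 kb in intron 5, a site chosen after its values were seen. HOXC6 had 31.5 reads per M there (1.95%) and HOXC9 21.9 (2%), each with another event within the merged site, and no day 3, day 4 or cofactor list had an event. Of all 94 Gfra1 sites, 18 (19.1%) had HOX events in EBs alone, against 21.6% of all sites.

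MEIS had events at 19 Gfra1 sites, against 3 at Ret, 4 at Gfra3, 2 at Gfra4 and 1 at Gfra2. In iHoxc10 cells 14 MEIS events lay at Gfra1, and 0.296% of protein-coding genes had as many, or 0.638% as many per Mb. The strongest was in iHoxc9 cells at Gfra1 +198.4 kb (25.2 reads per M, 4.39% of the list), where HOXC9 had 7.33 (10.4%). HOXC10 had no day 3 event at this site, but MEIS had one in iHoxc10 cells (3.01, 76.9%) and HOXC10 one at day 4 (1.43, 35.6%). At Gfra1 +145.8 kb MEIS had 8.06 in iHoxc9 and 6.21 in iHoxc10 cells, beside HOX events in 10 lists, and at Gfra1 +115.9 kb it ranked at 13.6% in iHoxc9, 36.9% in iHoxc10 and 79% in iHoxc6 cells. At 4 of the 19 Gfra1 sites (21.1%, against 11.8% of all MEIS sites) MEIS events had no HOX event beside them. One of these, Gfra1 +147.0 kb, had MEIS events in all 3 lines (3.51, 3.75 and 3.21). Each MEIS list rests on 1 library, and the iHoxc6 list is the shortest with 8219 events.

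Gfra2, the co-receptor for neurturin (chr14:70890120-70979838, plus strand), had 62 events at 20 sites, and for all of them its own start was the nearest. A single intron 4 site, Gfra2 +49.9 kb, had the highest Sig of the locus for 6 of the 7 full-length factors at day 3. By q-value the Gfra2 +10.6 kb site led instead for HOXC10 and HOXD9. At Gfra2 +49.9 kb, which lies 1.8 kb upstream of the start of a shorter annotated Gfra2 transcript, HOXC9 had 31.8 reads per M at a rank of 0.589%. HOXC8 had 9.44 (6.21%), HOXA9 6.56 (6.35%), HOXC6 3.33 (26.7%), HOXD9 2.15 (29.4%) and HOXC10 1.4 (74.1%), and no event was called for HOXC13. Among the factors with an event, HOXC9 thus ranked highest and HOXC10 lowest. The chimeras with the HOXC10 homeodomain had 19.5 (HOXC13:C10.1) and 6.17 (HOXC13:C10.2), and the reverse chimeras had no event. At day 4 HOXC9 had 12.9 (3.72%) and HOXC6 7.24, with no HOXC10 event in the whole window. HOXC9 in EBs had 52.3 reads per M at a rank of 0.322%, the largest value of any list in the 5 windows, while HOXC6 in EBs had no Gfra2 event. No MEIS event lay at this site.

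HOXC13 binding at Gfra2 lay past the end of the gene. At Gfra2 +103.8 kb HOXC13 had 7.69 reads per M (6.18%), with HOXC13:C10.1 at 8.57 (10.5%), HOXC9 at 2.64 (34.7%) and HOXC8 at 0.973 (87.7%). At Gfra2 +117.3 kb the HOXC10:C13 chimeras had their strongest event of the window (3.66 at 7.21% and 4.21 at 5.76%), HOXC13 had 2.37 (27.1%) and no other list had one. HOXC10 had 2 events at Gfra2 in all, the second at Gfra2 +10.6 kb (0.999, 98.7%).

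Gfra3, the co-receptor for artemin (minus strand, chr18:34689898-34720387), had 102 events at 27 sites. One merged site, 1.3 kb upstream of its start, held events of almost every HOX list, some of them weak. At Gfra3 -1.3 kb 15 of the 16 HOX lists had an event, HOXC6 at day 3 being the exception, and the merged site of 292 bp held 23 events. HOXC9 at day 3 had 16.3 reads per M (2.74%), HOXC8 5.1 (15.6%), HOXA9 5.03 (9.9%), HOXD9 4.42 (8.43%), HOXC10 1.93 (49%) and HOXC13 1.63 (41.9%). The HOXC13:C10 chimeras had 21.7 and 41.7, at ranks of 2.66% and 0.415%. The HOXC10:C13 chimeras had 0.911 and 0.9, weaker than their strongest events in this window, which ranked at 32.6% and 31.6%. In EBs the values were 35.8 for HOXC6 (1.54%) and 44.4 for HOXC9 (0.486%). At day 4 they were 2.99 for HOXC6 and 12.5 for HOXC9, the latter still at a high rank of 3.97%. The pooled HOXC9 signal fraction was 0.475 in EBs and 0.163 at day 4. MEIS had an event here in iHoxc9 cells (7.03, 31.4%).

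A group of Gfra3 sites past the end of the gene, 40.6 to 47.6 kb from its start, was led by other factors. These sites lie nearer to the start of Cdc23, a cell cycle gene, than to that of Gfra3. At Gfra3 +43.6 kb HOXC8 had 9.94 reads per M (5.75%), HOXC6 7.1 (7.63%), HOXD9 2.67 (20.9%), HOXA9 1.89 (40.3%), HOXC10 1.35 (76.8%) and HOXC9 1.1 (77.8%), and HOXC13 had no event. HOXC6 at day 4 had 22.6 at 2.44%. HOXC8 and HOXC6 thus ranked highest, and HOXC9 and HOXC10 lowest with nearly equal ranks. At Gfra3 -1.3 kb, by contrast, HOXC9 ranked highest and HOXC6 had no day 3 event. At Gfra3 +47.6 kb HOXC10 (3.85, 16.7%) and HOXC8 (4.16, 20.1%) ranked highest, HOXC6 had 1.67 (64.2%) and HOXC9 1.09 (77.9%), and MEIS had 5.24 in iHoxc6 and 3.35 in iHoxc10 cells. The highest site of a single list at Gfra3 was one of HOXC9 in EBs at Gfra3 +37.2 kb (6.04, 12.7%).

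Gfra4, the co-receptor for persephin (chr2:131039632-131043088, minus strand), is the shortest gene of the family (3.46 kb) and had 11 events at 5 sites, none inside the gene. The strongest was Gfra4 -4.6 kb, where HOXC9 in EBs had 11.7 reads per M (5.29%) and no other list had an event. A second event of the same list lay at Gfra4 -5.8 kb (1.95, 41.6%). At Gfra4 -41.8 kb, in an intron of Siglec1, HOXC8 had 1.95 (46.4%), HOXC10 1.74 (56.3%), HOXD9 1.7 (42%) and HOXC13:C10.2 2.82 (33.6%), with MEIS at 4.24 in iHoxc9 and 2.92 in iHoxc10 cells. Both HOXC10:C13 chimeras had an event at Gfra4 -7.0 kb (1.3 and 1.09). No day 4 list had an event in the window.

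Sharing between lists was then measured over the 5 windows together as the share of events of one list with an event of the other within 100 bp, beside the same share over all events of the list. HOXC9 and HOXC10 shared 21 events at day 3. These were 61.8% of 34 HOXC9 events (95% Wilson interval 45 to 76.1%, against 30.4% of all HOXC9 events) and 60% of 35 HOXC10 events (43.6 to 74.4%, against 81.3% of all HOXC10 events). Over sites, which can chain several events, 22 had both factors (47.8% of the 46 with either, against 29% genome-wide), 11 had HOXC9 without HOXC10 (23.9% against 65%) and 13 had HOXC10 without HOXC9 (28.3% against 5.96%), of which 8 were at Gfra1, 3 at Gfra3, 1 at Gfra2 and 1 at Gfra4. HOXC6 shared 8 of its 10 events with HOXC9, 80% (69.8%), and 9 with HOXC10, 90% (50.6%; interval 59.6 to 98.2%), while 23.5% of HOXC9 events (17.3%) and 25.7% of HOXC10 events (33.5%) had a HOXC6 event. HOXC6 and HOXC8 shared 9 events, 90% of those of HOXC6 (90.2% genome-wide) and 25.7% of those of HOXC8 (37%). HOXA9 and HOXD9 shared 30, 78.9% of HOXA9 (66.2%) and 68.2% of HOXD9 (73.5%). HOXA9 and HOXC9 shared 23, 60.5% of HOXA9 (67.4%) and 67.6% of HOXC9 (57.9%), and HOXD9 and HOXC9 shared 21, 47.7% of HOXD9 (55.5%) and 61.8% of HOXC9 (42.9%). HOXC13 shared 10 with HOXC9, 32.3% of its own (22.1%) and 29.4% of those of HOXC9 (34.7%), and 9 with HOXC10, 29% of its own (7.46%) and 25.7% of those of HOXC10 (31.6%). Of the 81 sites with any full-length factor at day 3, 2 (2.47%, against 1.6% genome-wide) had all 7 factors, both at Gfra1.

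Between stages, 20 HOXC9 events were shared, 87% of 23 at day 4 (81.8% genome-wide) and 58.8% of 34 at day 3 (49.4%). HOXC10 shared 12, 66.7% of 18 at day 4 (56.4%) and 34.3% of 35 at day 3 (46.4%). HOXC6 shared 9, 17.3% of 52 at day 4 (25.9%) and 90% of 10 at day 3 (92.4%). HOXC9 in EBs had a day 3 event at 17 of 65 events, or 26.2% (23.5%), and 16 of 34 HOXC9 events at day 3, or 47.1% (40.4%), had one in EBs. HOXC6 shared no event between EBs and day 3, 0 of 17 in EBs (7.38%; interval 0 to 18.4%) and 0 of 10 at day 3 (18.1%; interval 0 to 27.8%). Across the 5 genes 36 sites (22.4%) had HOX events in EBs alone, near the 21.6% of all sites, and 13 (8.07%, against 5.8%) had an event at day 4 with none of a full-length factor at day 3.

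The chimeras were compared with both parents. HOXC13:C10.1 had a HOXC10 event at 47.8% of 46 events (21.9% genome-wide) and a HOXC13 event at 26.1% (37.5%), and HOXC13:C10.2 had a HOXC10 event at 57.4% of 61 (31.3%) and a HOXC13 event at 18% (28.5%). In the other direction, HOXC10 had an HOXC13:C10.1 event at 60% of its 35 events (73.7%) and an HOXC13:C10.2 event at 91.4% (92.9%), and HOXC13 had them at 35.5% (30.5%) and 32.3% (20.8%) of its 31. HOXC10:C13.1 had a HOXC13 event at 54.5% of 22 events (49.5%), and HOXC10:C13.2 at 52% of 25 (47%). With HOXC10 HOXC10:C13.1 shared 45.5% (6274 of 61482 events of the whole list) and HOXC10:C13.2 32% (7.89%). Counted once each, the sites with either of these chimeras numbered 28, and 10 of them, or 35.7% (9.1%; interval 20.7 to 54.2%), had HOXC10. HOXC10 had an HOXC10:C13.1 event at 28.6% (23.3%) and an HOXC10:C13.2 event at 22.9% (25.1%) of its events, and HOXC13 had them at 38.7% (26.6%) and 41.9% (35.3%). The parents' lists differ in length (26873 events for HOXC10, 115879 for HOXC13). With each pair cut to equal length by Sig, HOXC13:C10.1 shared 80% of 15 events with HOXC10 (40.2% genome-wide) and 23.9% of 46 with HOXC13 (34.8%), and HOXC13:C10.2 shared 77.3% of 22 (66.2%) and 14.8% of 61 (24.3%). At full length in these windows both chimeras with the HOXC10 homeodomain thus shared a larger part of their events with HOXC10 than with HOXC13. Each pair was cut to its shorter list, so fewer and higher-ranked chimera events were kept against HOXC10 than against HOXC13. The cut shares with HOXC10 and with HOXC13 are therefore not on the same footing. Cut in this way, HOXC10:C13.1 shared 44.4% of 9 events with HOXC10 (11.1%) and 36.4% of 22 with HOXC13 (27.1%). HOXC10:C13.2 shared 20% of 5 with HOXC10 (8.56%) and 40% of 25 with HOXC13 (36%). Sites of chimera lists alone among the HOX lists numbered 19 (11.8%, against 17.6% of all sites), and 5 sites (3.11%, against 6.15%) with both HOXC10:C13 chimeras had no full-length factor at any stage.

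MEIS events were compared with the day 3 list of the factor induced in the same cells. The MEIS lists came from V5-tagged lines and these HOX lists from Flag-tagged lines, except for a V5 library of HOXC10. Of MEIS events, 60% of 5 in iHoxc6 cells coincided with HOXC6 (53.8% genome-wide). The shares were 57.9% of 19 in iHoxc9 cells with HOXC9 (66.8%) and 50% of 20 in iHoxc10 cells with HOXC10 (53.9%). Of the HOX events at day 3, 30% of those of HOXC6 (24.9%), 29.4% of those of HOXC9 (20.8%) and 28.6% of those of HOXC10 (25.8%) had a MEIS event from the V5 line of the same factor. In 9 of the 50 shares the genome-wide value lay outside the Wilson interval of the receptor windows. In 7 of these HOXC10 at day 3 was the second list and the share was above the genome-wide value, for HOXC6, HOXC9, HOXC13 and all 4 chimeras. They all use the same HOXC10 events, whose density in the windows was 3.99 times that of the genome, so they are not 7 separate results. The part of this density in the shares was not tested. With lists cut to equal length these 7 shares were again above the genome-wide value, but on 5 to 22 events each, and the interval excluded it in 2 of them (HOXC13:C10.1 and HOXC10:C13.1) and held it in 5. The other cases were HOXC9 with HOXD9, above, and HOXC10 with HOXC9, below. These intervals treat events as independent draws, although neighbouring events of 1 gene share chromatin and libraries, and they do not cover variation between differentiations.

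**Figure D4:**
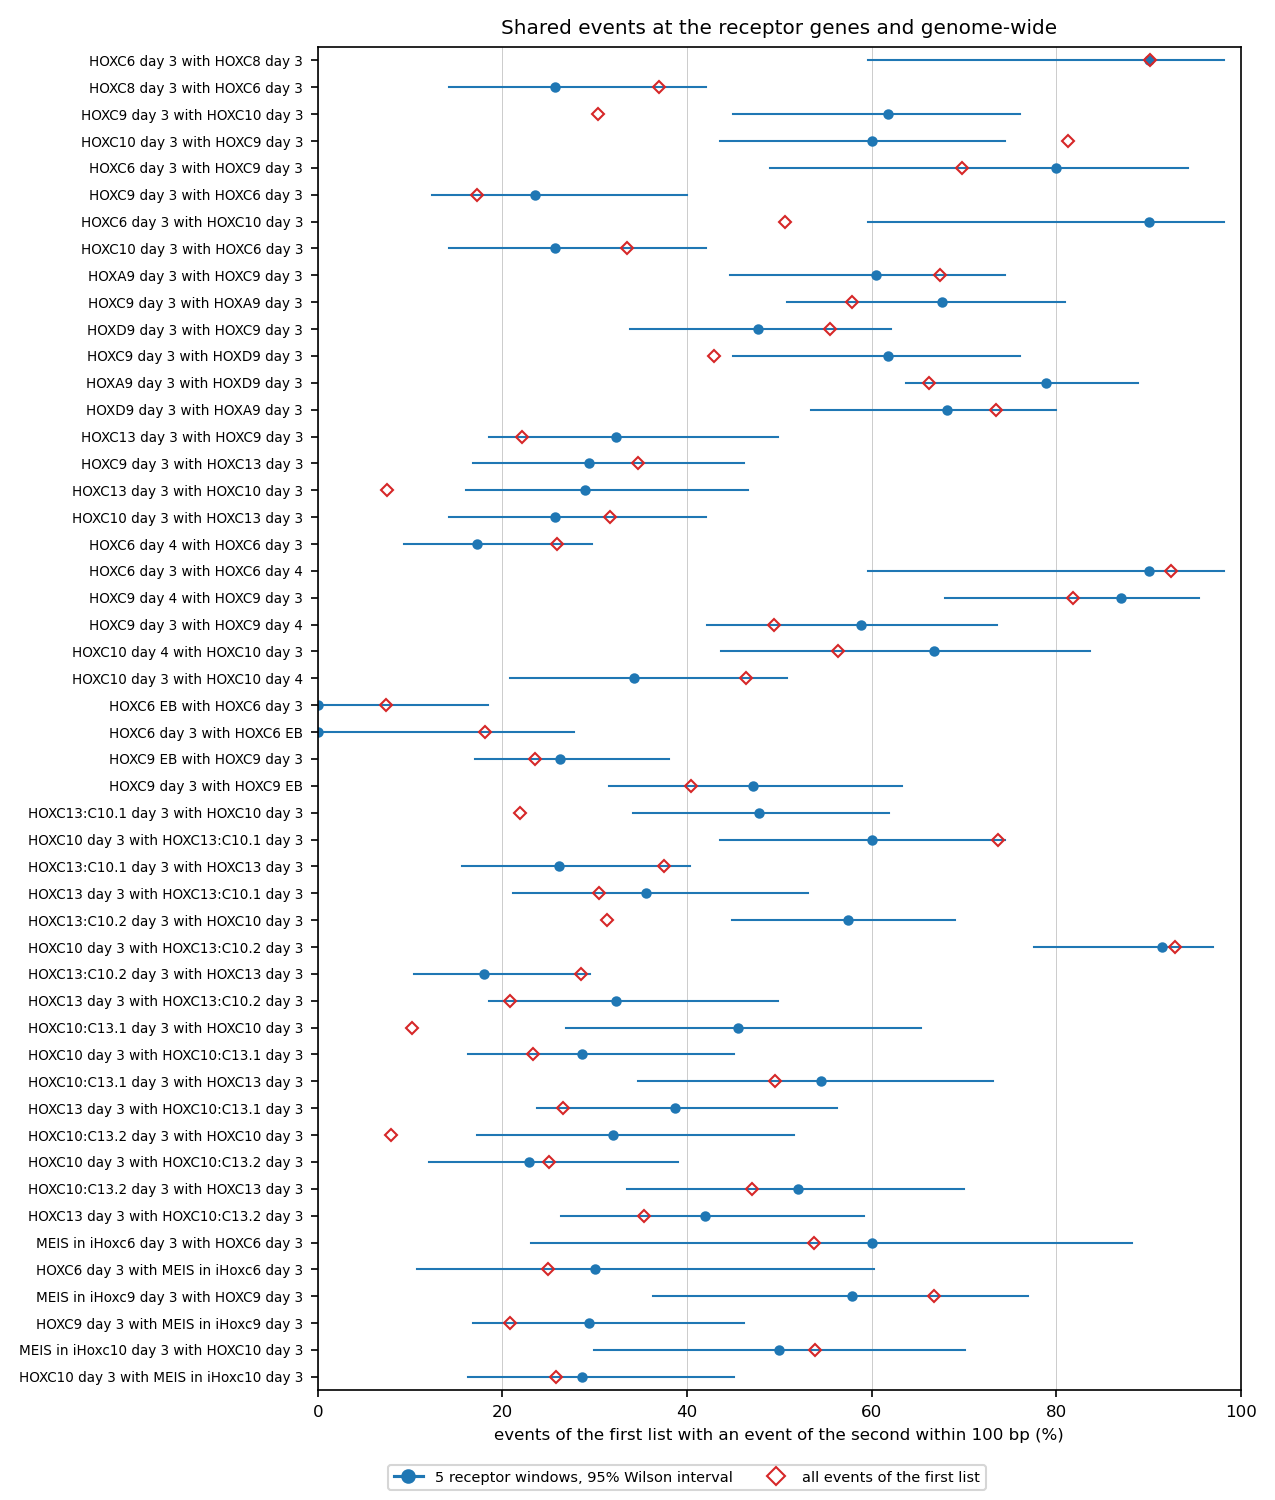
Circles give the share of events of the first list in the 5 receptor windows that have an event of the second list within 100 bp, with 95% Wilson intervals, and diamonds give the same share over the whole first list. The interval lies wholly above the diamond for HOXC6, HOXC9, HOXC13 and the 4 chimeras with HOXC10 as second list, and wholly below it for HOXC10 with HOXC9 (60% against 81.3%).

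The sequence under the events was searched on both strands within 50 bp of each event, beside all events of the same list and windows moved by 10 kb. TAAT, the core preferred by central HOX factors, lay at 90% of 10 HOXC6 events (71.1% of the whole list, 30% of moved windows), 71.4% of 35 HOXC8 events (77.2% and 31.4%), 67.6% of 34 HOXC9 events (74.7% and 35.3%), 74.3% of 35 HOXC10 events (72.7% and 28.6%) and 67.7% of 31 HOXC13 events (74.7% and 48.4%). TTTAT, the core of posterior factors, lay at 20% of HOXC6 events (38.4% and 30%), 37.1% of HOXC8 events (42.3% and 20%), 44.1% of HOXC9 events (62.4% and 20.6%) and 42.9% of HOXC10 events (54.2% and 22.9%). The Wilson intervals of HOXC8, HOXC9 and HOXC10 overlapped for both cores. TTTAC, a variant of TTTAT, lay at 45.2% of 31 HOXC13 events (42.8% and 12.9%). It also lay at 35.3% of HOXC9 events (27.7% and 5.88%), 31.6% of HOXA9 (25.6% and 5.26%) and 27.3% of HOXD9 (23% and 4.55%). The shares were 25.7% for HOXC10 (24.3% and 2.86%), 20% for HOXC8 (20.2% and 14.3%) and 10% for HOXC6 (18.2% and 0%). The TTTAC intervals of these factors all overlapped that of HOXC13 (29.2 to 62.2%). For HOXC9 the Wilson interval of TTTAT (28.9 to 60.5%) ended below the share of the whole list, but within 25 bp (16.8 to 46.2%, whole list 45.7%) and within 100 bp (53.8 to 83.2%, 79.5%) it did not, and at day 4 the HOXC9 share was 69.6% of 23 (whole list 63.1%). Within 50 bp the TTTAT interval also ended below the whole list for HOXC13 (54.8%, 37.8 to 70.8%, whole list 78.8%), though not within 100 bp (71.1 to 94.9%, 90.6%). For both HOXC10:C13 chimeras (63.6 and 68%, whole lists 89.2 and 90%) it did so within 25, 50 and 100 bp. TGACAG, the MEIS core, lay at 15.8% of 19 MEIS events in iHoxc9 cells (21.2% and 21.1%), and 25% of 20 in iHoxc10 cells (23.4% and 10%). In iHoxc6 cells it lay at 0 of 5 (25.5% and 20%). TGATTTAT, a longer site for PBX and posterior HOX factors that contains TTTAT, lay at 3 of the 161 sites. Sites without a match, such as Gfra3 +43.6 kb, hold none of these letters within 50 bp of the centre, which says no more than that.

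The wider GDNF pathway was examined with the same windows over 20 genes: 4 ligands, 3 other receptors, 7 adaptors, 3 ETS factors and 3 Sprouty inhibitors. At day 3 HOXC13 had an event at all 20 genes (84.3% of all protein-coding genes had one) and HOXD9 at 19 (77.6%). HOXC9 (70.4%) and HOXA9 (76.5%) had one at 18, HOXC8 at 17 (65.8%), HOXC10 at 16 (46.9%) and HOXC6 at 14 (45.5%). The median number per pathway gene was 5.5 for HOXC13 (3 over all protein-coding genes), 5 for HOXD9 (2), 4.5 for HOXA9 (2), 3 for HOXC9 (1), 2.5 for HOXC8 (1), 1 for HOXC10 (0) and 1 for HOXC6 (0). A top 10000 event lay near 10 of them for HOXC13 (26.1% of all protein-coding genes had one), HOXD9 (28%), HOXC8 (22.1%) and HOXC6 (25.7%), near 8 for HOXA9 (25.3%) and HOXC10 (23.1%), and near 6 for HOXC9 (19.5%). No test was made over this list. Of the ligand genes, Gdnf had 2 HOXC9 and 2 HOXC13 events at day 3 and none of the other 5 full-length factors, and 7 of HOXC9 in EBs. Nrtn, which encodes neurturin, had 7 HOXA9 and 6 HOXD9 events, above the median of 2 over all genes for both, Artn at most 3 and Pspn at most 3 of any full-length factor at day 3. Among the other receptors, Ncam1, a neural adhesion molecule that can bind GDNF with GFRA1, had 34 events of HOXC13, 28 of HOXA9, 24 of HOXC9, 21 of HOXD9, 18 of HOXC8, 13 of HOXC10 and 9 of HOXC6, in a window longer (397 kb) than that of Gfra1. Sdc3, a heparan sulphate proteoglycan that binds GDNF, had 2 events of HOXC6 to 7 of HOXA9. Gfral, the receptor for GDF15, had 13 HOXC13 events and no HOXC10 or HOXA9 event. Of the ETS factors, Etv4, a target of GDNF in motor pools, had 3 top 10000 events each of HOXC9, HOXC10 and HOXA9, and Etv1 had 19 HOXC13 and 12 HOXC8 events with 2 of HOXC10. Etv5 had 14 and 21 events in EBs (HOXC6, HOXC9) and at most 5 of any full-length factor at day 3.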

How the data were processed

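Chromatin immunoprecipitation sequencing of HOX, MEIS and PBX proteins was analysed from the deposited event lists. The authors aligned reads to mm10 with Bowtie (1.0.1 in the submitters' processing notes, which also name Picard 2.8.2 and edgeR 3.22.5) and called events with MultiGPS per group, over pooled libraries, with a threshold of 0.001 on the q-value against the control. Each deposited event has Sig and Ctrl, estimated counts of ChIP and of scaled control reads, with a log2 ratio between them and a column that the authors deposited as a score of the event against control. Its header says log2 P, and it was read here as a log2 q-value because its largest value in each list lies just below the log2 of that threshold, so the settings that use q rest on this reading. Several lists also hold the authors' edgeR comparisons between conditions, which were not used, and the position tracks were used only to check that all 21 hold the same positions as their lists. Depth was 5.04 to 32.9 M reads for each of 40 libraries, against controls of 4.72 to 20.6 M.

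Groups came from the labels. Gene spans and transcripts were those of GENCODE mouse release 21 on GRCm38, the same assembly as mm10, and genome sequence was that of RefSeq for GRCm38. In the windows all 520 deposited sequences lay within 150 bp of their event on it. Events were merged and shared at 100 bp, ranked by Sig, and searched for motifs 50 bp to each side with Python 3.11.15, NumPy 2.4.6 and SciPy 1.17.1. The functions recovered all planted values on simulated data. Named sites are those in most HOX lists for each gene, the highest event of each full-length factor, the highest site of a single list and all sites with MEIS or PBX. Sites outside this rule (Ret +93.6 and +5.0 kb, Gfra1 +144.0 and +141.1 kb, Gfra2 +117.3 kb) were named after their values were seen. The members and lists were chosen with earlier results of these data known. Lists pool their libraries, so no test between groups was made and shares have 95% Wilson intervals for the sampling of events only. Alternatives varied the flank, merging and sharing distance, q-value, ranking, list length and motif window. The 2 control libraries were not analysed.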

Additional observations from a re-analysis of the deposited data

How the results depend on the processing

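Of 353 recomputed values, 260 moved by less than the limit set for them (1.5 times for a count, the 95% Wilson interval for a share) and 93 moved further. Merging within 50 or 200 bp changed no count of sites by over 1.5 times, nor did a q-value under 1e-06 for any gene, and ranking by q-value kept the number of top 10000 events within that limit in all 7 day 3 lists. It moved the leading site in 2 of 31 cases, both at Gfra2. The flank set the counts. Without a flank there were 87 sites, with 4 at Ret, 8 at Gfra2, 5 at Gfra3 and 0 at Gfra4. With 25 kb there were 9 at Ret, 11 at Gfra2 and 3 at Gfra4, and with 100 kb there were 27, 38 and 16. Among top 10000 events alone there were 41 sites, with 4 at Ret, 24 at Gfra1, 3 at Gfra2, 8 at Gfra3 and 2 at Gfra4.

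Lists cut to equal length by Sig moved several shares. HOXC8 events with a HOXC6 event rose to 50% (69.6% genome-wide), and HOXC6 events at day 4 with a day 3 event to 77.8% (71.7%). HOXC13:C10.2 events with a HOXC10 event rose to 77.3% (66.2%), and HOXC10 events with a HOXC9 event fell to 25.7% (48.7%). The cut left 35 HOXC10 and 13 HOXC9 events in the windows. The number of HOXC9 events thus limited the HOXC10 share with HOXC9, and no conclusion is drawn from its fall. Of the 7 shares with HOXC10 whose interval lay above the genome-wide value, 2 kept it outside the interval at equal length (5 to 22 events each). Within 50 bp the HOXC13:C10.2 share was 44.3%. Motif shares rose with the window. Within 100 bp TAAT lay at 100% of HOXC6 and 91.4% of HOXC8 events, TTTAT at 70.6% of HOXC9 (79.5% of the whole list) and 62.9% of HOXC10 events (72.8%) and TTTAC at 64.5% of HOXC13 events, and within 25 bp TAAT lay at 54.3% of HOXC8 events.

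No paired analysis was possible because each list pools its libraries and no result comes from a test, and leaving out a library was not run for the same reason. Depth and signal fraction differ between lists, and their part in the differences in event number was not tested.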
